A study of Mus musculus with 2 samples.

Results

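The 10 genes described here encode secreted proteins of the yolk sac, measured in a mouse extraembryonic endoderm line. They are the plasma carriers Afp, Alb, Ttr, Rbp4 and Trf, and the apolipoproteins Apoa1, Apoa4, Apob, Apoe and Apom. They were taken by symbol from the deposited expression table, and all 10 were found among its 26127 genes, each on 1 row. Extraembryonic endoderm stem (XEN) cells are cultured derivatives of the primitive endoderm, the blastocyst layer from which visceral and parietal endoderm form. Both samples are female PS10 XEN cells of the ICR strain, transfected with Lipofectamine RNAiMax. The knockdown sample received a locked nucleic acid (LNA) against Gata6-AS, the antisense RNA beside the endoderm factor gene Gata6, and the control sample a control LNA, with 1 library per group. The treatment protocol names them as LNA, although siRNA is the word in the sample titles. There was no replicate check, so every difference is between these 2 libraries, and all intervals cover counting error only. The only p-values printed are those of the authors' deposited table, which compares the same 2 libraries.

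The visceral endoderm acts as the embryo's first liver. It takes up maternal proteins and lipids through endocytic receptors, and it secretes carriers and lipoproteins towards the embryo. Afp encodes alpha-fetoprotein and Alb serum albumin, the main soluble proteins of fetal and adult plasma. Ttr encodes transthyretin, which carries thyroid hormone and docks with Rbp4, the plasma carrier of retinol. Trf encodes transferrin, the plasma iron carrier. Apob is the structural protein on which triglyceride-rich lipoproteins are built, Apoa1 the main protein of high-density lipoprotein, Apoa4 a related exchangeable apolipoprotein, Apoe a ligand through which lipoproteins are taken up by cells, and Apom a lipocalin of high-density lipoprotein that binds sphingosine-1-phosphate.

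Depth was read from the values, given as RPKM (reads scaled to 1000000 reads in the library and to each kilobase of the gene), and corresponded to 1.04e+08 reads in the control and 1.23e+08 in the Gata6-AS LNA library. The targeted RNA, listed as 1010001N08Rik, stood at 57.8% of control and Gata6 at 68.0%. Endoderm identity was checked with marker lists. All 11 markers of XEN cells and primitive endoderm averaged 1 RPKM or more, as did 13 of 15 parietal endoderm markers, while only 9 of 15 visceral endoderm markers did. The 2 parietal markers below 1 RPKM were Col4a1, at 0.0878 RPKM with the control LNA and 0.168 RPKM with the Gata6-AS LNA, and Col4a2, at 0.531 and 0.619 RPKM. Afp and Apoa1 were among the 6 visceral markers below it, together with Amn, Vil1, Lefty1 and Otx2, at a highest mean of 0.120 RPKM. The summed level of the parietal list was 4999 RPKM with the control LNA and 3831 RPKM with the Gata6-AS LNA. Its most abundant markers were Sparc (2104 and 1689 RPKM), Lama1 (1125 and 828 RPKM) and Lamb1 (937 and 735 RPKM), each short of 2-fold lower. Of its 13 measured markers, Fst, Snai1, Sox7, Thbd and Nog, 5 in all, were 2-fold lower on the log2(RPKM + 1) scale used throughout. Over all measured genes, 0.451% were. Of the 13, 12 lay below 0 and 1 above it, Vim, at 117 and 182 RPKM (0.64). Of the 11 markers of XEN cells and primitive endoderm, 6 lay below 0 and 5 above, from Sox7 (-1.28) to Foxq1 (0.96). Sox7, the only one of the 11 that was 2-fold lower, and Pdgfra are also in the parietal list. The visceral list summed to 122.0 and 121.5 RPKM, and of its 9 measured markers 4 lay above 0 and 5 below. It holds Afp, Ttr, Rbp4 and Apoa1 of the genes described here, so it is not independent of them. Rbp4 alone gave 77.5 and 62.7 RPKM of these sums. Dkk1 stood at 11.1 and 31.5 RPKM and Bmp2 at 13.4 and 4.13 RPKM, each past 2-fold. Ihh, at 3.45 and 7.17 RPKM (208% of control), was more than 2-fold higher on RPKM alone. The part of these markers in the results below was not tested. No trophoblast marker of 11, 2 of 11 fibroblast markers and 2 of 10 epiblast and embryonic stem cell markers averaged 1 RPKM or more. These were Pdgfrb at 3.82 and 4.61 RPKM, Fbn1 at 2.23 and 2.24 RPKM, Nanog at 4.61 and 5.07 RPKM and Utf1 at 1.90 and 5.05 RPKM, the last past 2-fold (1.06). The trophoblast marker of highest mean, Cdx2, stood at 0.653 RPKM with the control LNA and 1.19 RPKM with the Gata6-AS LNA. Pou5f1, Col1a1 and Dcn were each below 0.1 RPKM in both libraries. Of 12 markers of definitive gut endoderm and hepatoblast, a list that includes Alb, 5 averaged 1 RPKM or more. Of these, 4 lay above 0 and 1 below, with a median of 0.24 and none past 2-fold. They were Epcam (7.96 and 9.56 RPKM), Tbx3 (6.22 and 9.45 RPKM), Prox1 (1.04 and 1.72 RPKM), and Cer1 and Hhex, which are also in the visceral list. In bulk RNA, fewer cells of a type and less RNA per cell cannot be told apart.

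Of the 10 genes, 4 were measured, that is, they averaged 1 RPKM or more: Apoe, Rbp4, Trf and Ttr. The other 6 were below that level in both libraries, and 58.4% of all genes in the table were likewise not measured. Of the carriers 3 of 5 were measured, and of the apolipoproteins 1 of 5. The order of levels was the same in both libraries from the highest down to Apom. Apoe made up 63.4% of the members' summed RPKM in the control and 65.6% in the Gata6-AS LNA library, and Rbp4 28.4% and 26.3%. The sum itself was 272.7 RPKM with the control LNA and 237.8 RPKM with the Gata6-AS LNA, 87.2% of control, while the sum over all genes was 101.9% of control.

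**Figure D1:**
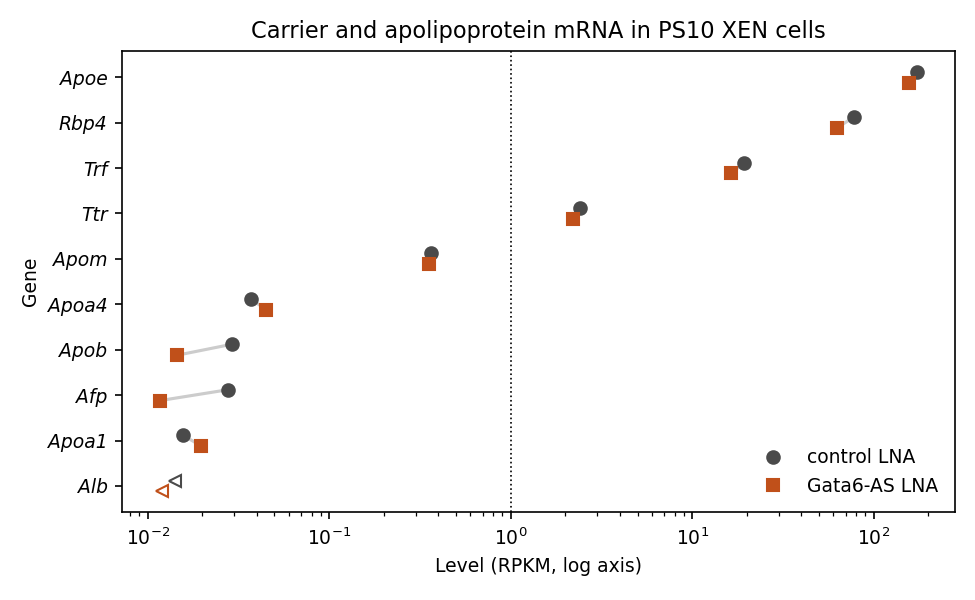
Level of each of the 10 genes in RPKM on a log axis, with a circle for the control LNA library and a square for the Gata6-AS LNA library. The dotted line marks 1 RPKM, with Apoe, Rbp4, Trf and Ttr to its right, and the open triangles for Alb, which is at 0, mark the value that 3 reads over its annotated transcript would give.

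Among the carriers, Rbp4 was the most abundant. It maps to chr19:38191110-38199811 (minus strand) in the mm9 assembly, the build of all gene positions here. Rbp4 stood at 77.5 RPKM with the control LNA and 62.7 RPKM with the Gata6-AS LNA, higher than 97.8% of all genes by its mean. The Gata6-AS LNA library held 80.8% of the control level (exact Clopper-Pearson 95% interval 78.6% to 83.1%; least reads 10415 and 9992), a difference of -0.30 on the log2(RPKM + 1) scale. Of all measured genes, 9.13% had a lower difference. This was the most negative difference of the members, and still well short of 1.5-fold.

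Ttr, whose product travels with that of Rbp4, was far less abundant. It maps to chr18:20823751-20832825 (plus strand), and stood at 2.42 RPKM with the control LNA and 2.20 RPKM with the Gata6-AS LNA. Rbp4 was thus 32.0 times as abundant per length as Ttr in the control and 28.5 times in the Gata6-AS LNA library. Ttr held 90.8% of control (77.5% to 106%; least reads 306 and 330), so at this depth no difference was detectable.

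Trf, at chr9:103092538-103132774 (minus strand), stood at 19.3 RPKM with the control LNA and 16.4 RPKM with the Gata6-AS LNA. That is 84.9% of control (82.4% to 87.5%; least reads 8459 and 8527), a log2(RPKM + 1) difference of -0.22. This value has a limit, since the Trf interval overlaps another gene. In the deposited table its interval shares 11930 bp with Srprb, a gene on the same strand that encodes a subunit of the signal recognition particle receptor. The gene length implied by the Trf values was 4230 bp, against 2571 bp for the longest coding Trf transcript in GENCODE M21. In that annotation, on GRCm38, the 2 genes are separated by 1863 bp. Srprb stood at 37.9 RPKM with the control LNA and 32.8 RPKM with the Gata6-AS LNA, 86.5% of control (84.6% to 88.3%). How many of the reads given to Trf lie in Srprb exons was not tested.

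The fetal and adult albumins were at or near 0. Both sit on the plus strand of one cluster, Alb at chr5:90889915-90905629 and Afp at chr5:90919740-90937933. Alb was at 0 in both libraries, which allows up to 0.0142 RPKM with the control LNA and 0.0120 RPKM with the Gata6-AS LNA at a floor of 3 reads over its annotated transcript of 2034 bp. Afp stood at 0.0278 RPKM with the control LNA and 0.0117 RPKM with the Gata6-AS LNA, from 6 and 3 reads at the smallest gene length that fits its values, 2086 bp. The ratio of 42.1% of control has a counting interval of 6.82% to 197%. Afm, a further gene of this cluster and also of the albumin family, was at 0.00954 RPKM in the control and listed at 0 in the Gata6-AS LNA library, so the highest value in the cluster was that of Afp in the control.

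Among the apolipoproteins, Apoe was alone above 1 RPKM. It maps to chr7:20281458-20284515 (minus strand), and stood at 173 RPKM with the control LNA and 156 RPKM with the Gata6-AS LNA. Its mean exceeded that of 99.2% of all genes. It held 90.3% of control (87.1% to 93.5%; least reads 5911 and 6335), a difference of -0.15. These are the least reads that its values allow. They imply a length of 330 bp, shorter than the longest coding Apoe transcript of 1408 bp, so the true counts are a multiple of them and would narrow the interval or leave it as it is. The level of Apoe was 2.23 times that of Rbp4 in the control and 2.49 times in the Gata6-AS LNA library.

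Apoe stood out from its own gene cluster. Its neighbour Apoc1, which encodes a small exchangeable apolipoprotein, was at 0.0539 RPKM with the control LNA and 0.0151 RPKM with the Gata6-AS LNA, and Apoc2, the activator of lipoprotein lipase, at 0.0622 and 0.0785 RPKM. Apoc4 was at 0 in both. On the other side, 2146 bp upstream of Apoe and on the same strand, lies Tomm40, which encodes the mitochondrial import channel. Tomm40 stood at 9.28 RPKM with the control LNA and 17.1 RPKM with the Gata6-AS LNA, a difference of 0.81, while that of Apoe was -0.15.

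The Apoa1 cluster on chromosome 9 was near 0 throughout. Apoa1 (chr9:46036663-46038549, plus strand) stood at 0.0156 RPKM with the control LNA and 0.0197 RPKM with the Gata6-AS LNA, from 2 and 3 reads, which is at or under the floor and gives no ratio. Apoa4 (chr9:46048779-46051542, plus strand) stood at 0.0372 and 0.0448 RPKM, from 7 and 10 reads at an implied length of 1815 bp, the length of its annotated transcript. Gm10680 overlaps Apoa4 by 839 bp on the opposite strand, and the sources used here do not say whether counting was by strand. Apoc3, between these genes, was at 0.0190 and 0.00802 RPKM, and Apoa5 at 0.0230 and 0.0485 RPKM. Sik3, a kinase gene that ends 4385 bp before Apoa1 begins, stood at 6.17 and 4.86 RPKM, and Zfp259, beyond Apoa5, at 7.03 and 9.70 RPKM, so the low values stopped at the edges of the cluster.

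Apob was low but counted in both libraries. At chr12:7984454-8023641 (plus strand), it stood at 0.0291 RPKM with the control LNA and 0.0146 RPKM with the Gata6-AS LNA, from 42 and 25 reads at an implied length of 13934 bp, the length of its longest annotated transcript. The ratio was 50.1% of control, with a counting interval of 29.3% to 84.2%. Because both values lie far below the pseudocount, the log2(RPKM + 1) difference was only -0.02. Apob was the only member of the 10 in the authors' deposited table, which lists 8.03% of all genes. In the authors' deposited table its log2 difference was -1.14 (p = 0.0548), from the authors' log2 values of -1.23 in the control and -2.36 in the Gata6-AS LNA library, which are not the log2 RPKM values of -5.10 and -6.10. The sources used here do not name the test behind that p.

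Apom, at chr17:35265942-35268995 (minus strand), was the most abundant of the unmeasured members. It stood at 0.366 RPKM with the control LNA and 0.356 RPKM with the Gata6-AS LNA, 97.2% of control (43.1% to 222%; least reads 13 and 15). These reads imply a length of 343 bp, shorter than the longest coding Apom transcript of 1013 bp. The true counts may therefore be higher and the interval narrower. Both genes beside it were expressed. D17H6S53E, 141 bp away on the opposite strand, stood at 3.64 and 3.58 RPKM, and Bag6, a chaperone gene 3127 bp away on its other side, at 24.9 and 26.3 RPKM.

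**Figure D2:**
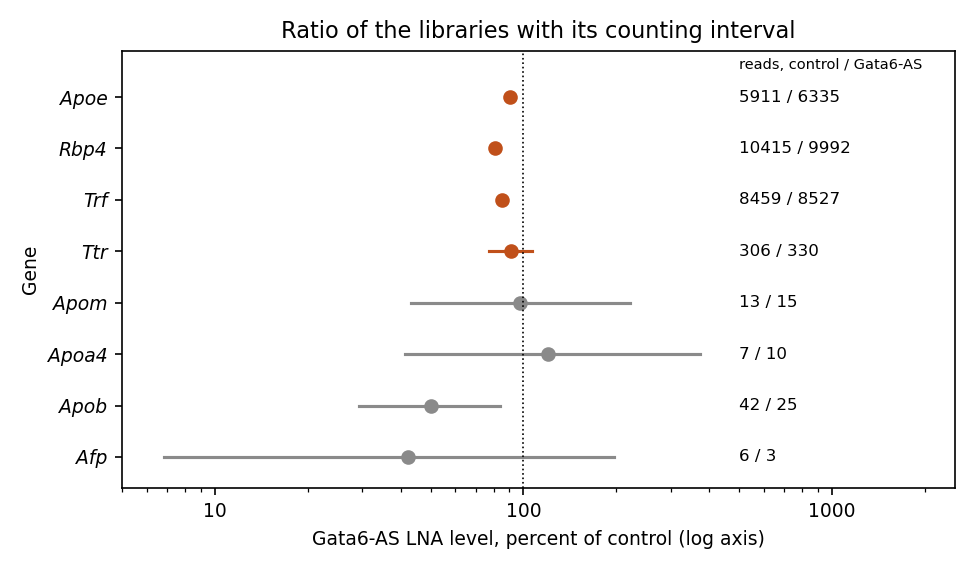
Level in the Gata6-AS LNA library as a percentage of control on a log axis, with the exact 95% counting interval as a line and the least number of reads in the control and Gata6-AS LNA libraries at the right. Orange marks genes averaging 1 RPKM or more and grey those below it; the intervals of Rbp4, Trf, Apoe and Apob lie below 100%, and Alb and Apoa1, at or under 3 reads, are not drawn.

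Of the 4 measured members, 0 were 2-fold higher or lower on the log2(RPKM + 1) scale, where 0.782% of 10864 measured genes were (0.331% higher and 0.451% lower). At 1.5-fold the count was also 0, against 5.38% of all measured genes (3.42% higher and 1.95% lower). All 4 differences lay below 0, as did those of 42% of measured genes, while 58% lay above it, and they ran from -0.30 for Rbp4 to -0.10 for Ttr. Their median was -0.19 and the median over all measured genes 0.05. The counting intervals of 3 of the 4 lay wholly below 100%, as did those of 31.3% of measured genes, while 44.8% lay wholly above it. An interval that leaves out 100% was therefore common at this depth.

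Promoter sequence is shown for the most abundant carrier and apolipoprotein, Rbp4 and Apoe, and for the near-silent pair Afp and Alb, since the members differed far more in level than between the libraries. Sequences are from RefSeq (GRCm38.p6), 250 bases up to the most upstream annotated start, 5′ to 3′ on the gene's strand. Capitals mark matches on either strand to 5 kinds of motif. For GATA factors these were AGATAA and TGATAA, for FOXA factors TGTTTAC and TATTTAC, and for HNF4 CAAAGTCCA and CAAAGGTCA. The CCAAT box and the TATA motif TATAAA were searched as well. No marked matches overlap.
Rbp4 (chr19:38125322-38125571, minus strand): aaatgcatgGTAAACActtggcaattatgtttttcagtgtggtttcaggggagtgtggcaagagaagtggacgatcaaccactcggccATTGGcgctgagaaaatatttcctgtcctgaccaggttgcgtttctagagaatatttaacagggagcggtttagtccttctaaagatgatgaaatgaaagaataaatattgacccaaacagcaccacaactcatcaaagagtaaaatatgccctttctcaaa
Apoe (chr7:19699189-19699438, minus strand): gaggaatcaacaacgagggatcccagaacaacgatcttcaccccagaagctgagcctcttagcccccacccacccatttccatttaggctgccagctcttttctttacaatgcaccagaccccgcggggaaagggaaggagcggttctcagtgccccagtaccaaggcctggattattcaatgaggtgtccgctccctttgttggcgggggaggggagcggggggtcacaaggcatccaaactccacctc
Afp (chr5:90490464-90490713, plus strand): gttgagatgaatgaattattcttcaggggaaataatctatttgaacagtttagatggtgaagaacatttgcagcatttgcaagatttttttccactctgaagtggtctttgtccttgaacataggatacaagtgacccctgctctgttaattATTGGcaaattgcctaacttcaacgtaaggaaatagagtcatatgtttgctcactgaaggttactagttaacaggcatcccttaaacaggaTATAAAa
Alb (chr5:90460620-90460869, plus strand): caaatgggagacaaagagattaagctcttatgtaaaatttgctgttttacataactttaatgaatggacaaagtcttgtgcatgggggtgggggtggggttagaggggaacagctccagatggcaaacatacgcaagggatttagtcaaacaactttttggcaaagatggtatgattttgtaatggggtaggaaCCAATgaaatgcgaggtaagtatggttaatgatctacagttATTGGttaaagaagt

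Windows of 8 members were read in this way. The Rbp4 window had a FOXA match at -241 to -235, a match found in 5.75% of 32536 distinct promoter windows of this length, and CCAAT occurred in those of Afp, Alb and Rbp4 (33.8%). TATAAA occurred in the windows of Afp and Apob (12.3%). None of the 8 held a GATA match (16.5%) or an HNF4 match (0.814%), and the Apoe, Apoa1, Apoa4 and Apom windows held no match at all. These are matches of letters, not sites shown to be bound.

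The transcription factors of endoderm and liver showed which regulators the cells expressed. Of 29 described here, 12 were measured, with 6 differences above 0, 6 below 0 and a median of -0.18. Sox7 was the only one past 2-fold, at 145 RPKM with the control LNA and 59.4 RPKM with the Gata6-AS LNA (-1.28). Gata4, Gata6 and Sox17 stood at 357, 81.9 and 70.3 RPKM in the control and at 246, 55.7 and 52.3 RPKM in the Gata6-AS LNA library. Those differences, -0.54, -0.55 and -0.42, were all more negative than that of any member. Among factors known to act on albumin and apolipoprotein genes, Hnf4a stood at 3.41 and 4.43 RPKM and Foxa2 at 35.1 and 35.9 RPKM. Foxa1 and Cebpa were at 0 in both libraries.

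Of 22 other apolipoproteins and lipoprotein proteins found, 5 were measured, none past 2-fold, with 4 differences below 0 and a median of -0.13. Clu, the secreted chaperone clusterin, stood at 66.3 RPKM with the control LNA and 51.5 RPKM with the Gata6-AS LNA (-0.36). Pltp, the phospholipid transfer protein of plasma, stood at 54.7 and 49.9 RPKM (-0.13). Apoo and Apool, which encode inner mitochondrial membrane proteins despite their names, stood at 11.5 and 10.9 RPKM and at 5.63 and 4.37 RPKM. Apoa2, Apod, Apof and Apoh were below 0.2 RPKM in both libraries.

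Genes for lipoprotein assembly were expressed although Apob was near 0. Of 25 found, 16 were measured, 10 above 0 and 6 below, with a median of 0.02. None passed the 2-fold rule on RPKM + 1, although Lipg did so on RPKM alone. Mttp, the transfer protein that loads lipid onto apolipoprotein B, stood at 29.0 RPKM with the control LNA and 25.1 RPKM with the Gata6-AS LNA (-0.20). Its partner subunit P4hb, protein disulfide isomerase, stood at 776 and 791 RPKM, the cargo receptor gene Surf4 at 71.1 and 84.5 RPKM, and the coat GTPase gene Sar1b at 39.1 and 38.3 RPKM. The cholesterol esterifying enzyme gene Soat1 stood at 35.4 and 36.3 RPKM. Apobec1 and A1cf, which edit Apob mRNA, were at 0 in the control, and at 0.0034 and 0 RPKM with the Gata6-AS LNA. Lipg, a secreted lipase that acts on high-density lipoprotein, stood at 6.76 RPKM with the control LNA and 13.9 RPKM with the Gata6-AS LNA. That is 206% of control (197% to 216%), a difference of 0.94, which is the highest of this list.

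Of 20 receptors and adaptors for these carriers described here, 13 were measured, 8 above 0 and 5 below, with a median of 0.04. On the RPKM + 1 scale none was 2-fold higher and Vldlr was 2-fold lower, while on RPKM alone Lrp8 was more than 2-fold higher. Vldlr, the receptor gene for very-low-density lipoprotein, stood at 13.3 RPKM with the control LNA and 6.12 RPKM with the Gata6-AS LNA. That is 45.9% of control (43.7% to 48.2%), and the authors' deposited table gives a log2 difference of -1.13 (p = 0.000204). Lrp8, which encodes a receptor of the same family, stood at 1.57 and 3.47 RPKM, 221% of control (205% to 240%). Its difference of 0.80 was the highest of those described, and in the authors' deposited table its log2 difference was 1.08 (p = 0.000514). Both encode receptors of apolipoprotein E, whose own mRNA held 90.3% of control. They lay on opposite sides of 0, and Vldlr was the more abundant in both libraries. Lrp1, a large endocytic receptor that also binds apolipoprotein E, stood at 2.82 and 2.91 RPKM (0.04).

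Receptors of the other carriers had differences from -0.20 for Lrp2 to 0.29 for Tfrc. Lrp2 (megalin) and Cubn (cubilin), which take up retinol-binding protein and transferrin among many ligands, stood at 86.5% (84.7% to 88.4%) and 86.5% (84.0% to 89.0%) of control, while their partner Amn was below 0.1 RPKM in both libraries. Stra6, the cell-surface receptor for retinol-binding protein, stood at 18.7 RPKM with the control LNA and 17.9 RPKM with the Gata6-AS LNA. Tfrc, the transferrin receptor, stood at 3.997 and 5.10 RPKM (0.29), on the other side of 0 from Trf. The receptor chaperone gene Lrpap1 stood at 287 and 274 RPKM, and Dab2, which encodes an endocytic adaptor, at 31.0 and 43.6 RPKM (0.48).

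**Figure D3:**
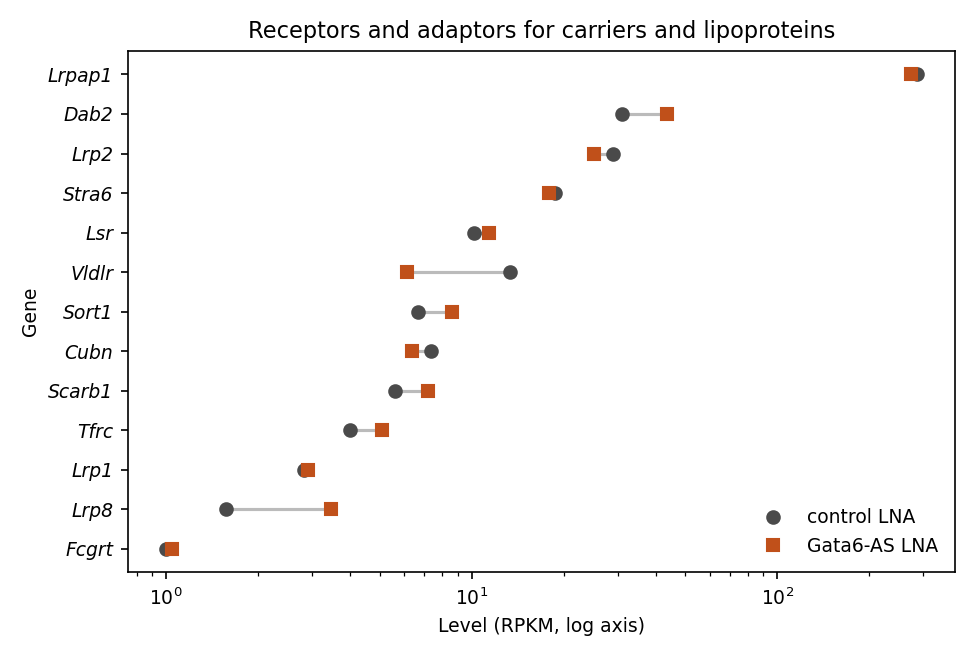
Level of the 13 measured receptors and adaptors in RPKM on a log axis, with a circle for the control LNA library and a square for the Gata6-AS LNA library. Vldlr stands at 13.3 and 6.12 RPKM and Lrp8 at 1.57 and 3.47 RPKM, while the 2 points of Lrp2, Cubn and Stra6 lie close together.

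Of 45 genes listed as other secreted proteins of yolk sac and liver, 7 were measured and 9 were at 0 in both libraries. Of all 26127 genes, 7216 were at 0 in both. The 7 measured genes had 4 differences above 0 and 3 below, with a median of 0.05 and none past 2-fold. The list as written also holds genes whose products are not secreted, among them the noncoding RNA H19 and the intracellular Rbp2 and Fabp1. H19 stood at 206 RPKM with the control LNA and 276 RPKM with the Gata6-AS LNA (0.42). Sepp1, selenoprotein P, had the most negative difference, -0.81, at 22.8 and 12.6 RPKM. Ahsg had the highest, 0.46, at 1.06 and 1.84 RPKM, and Igf2 (0.10) and Orm1 (0.05) were also above 0. Serping1, the C1 inhibitor, stood at 34.8 and 27.5 RPKM (-0.33), and the trypsin inhibitor gene Spink3 at 44.0 and 39.7 RPKM (-0.15). The fibrinogen genes Fga, Fgb and Fgg, the antiproteases Serpina1a to Serpina1e and the vitamin D carrier Gc were each below 0.1 RPKM in both libraries.

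**Figure D4:**
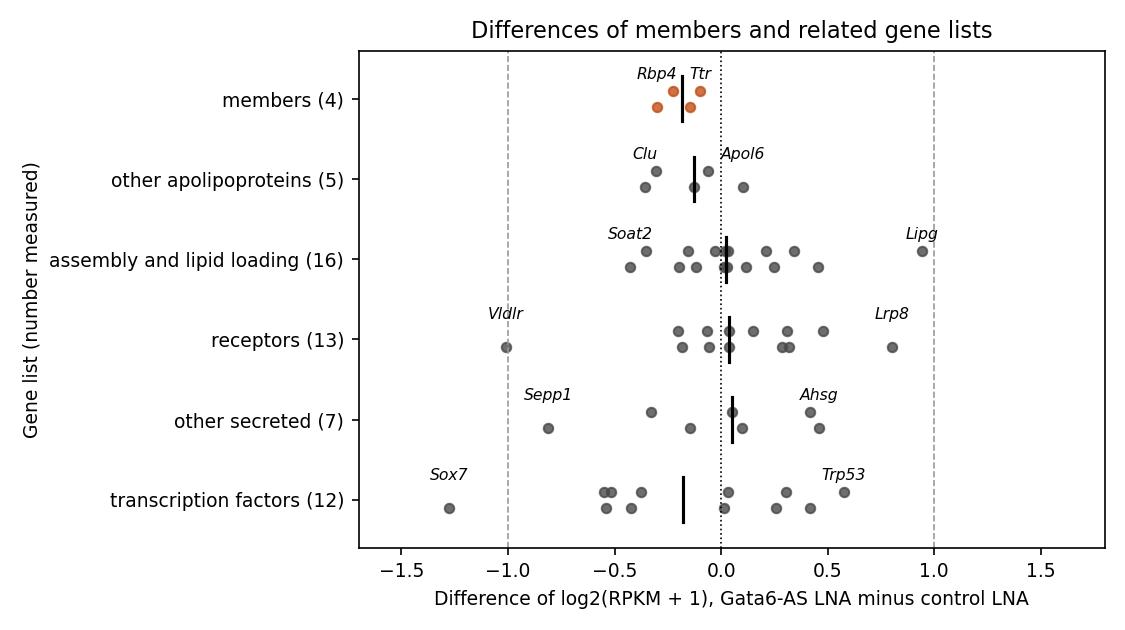
Difference of log2(RPKM + 1), Gata6-AS LNA minus control LNA, for each measured gene of the members and 5 related lists, with short bars at the medians and dashed lines at a difference of 1 in either direction. The 4 members lie between -0.30 and -0.10, while receptors run from -1.01 for Vldlr to 0.80 for Lrp8.

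The regions around the members held genes differing in both directions. Of 17 measured genes in the list of neighbours, 8 were above 0 and 9 below, with a median of -0.05 and none past 2-fold. The genes beside Rbp4, O3far1 and Pde6c, were below 0.25 RPKM in both libraries. Ttr is flanked by Dsg2 at 1.53 and 1.20 RPKM and by Gm10269 at 0.130 and 0.0731 RPKM, and it shares 11 bp with Gm16090 on the opposite strand, which stood at 0.312 and 0.277 RPKM. Rab6b, next to Trf, stood at 26.0 and 20.2 RPKM (-0.35), and 1300017J02Rik, on its other side, at 0.0661 and 0.0442 RPKM. Among genes with deposited values, those nearest to Apob were 862522 bp before it and 191271 bp after it. Genes without such values may lie closer.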

How the data were processed

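RNA-seq of 1 control LNA and 1 Gata6-AS LNA library of PS10 cells was used. RPKM values were computed by the authors, per the file headers; the submitters' processing notes name TopHat and mm9. No source used here gives the counting tool, the annotation or the use of strand. The authors also deposited a table with log2 values, their difference and a p-value for 2099 genes, up to a p of 0.0750; its rows were joined by position. Samples were grouped by title. The members and lists were chosen with earlier results of these data known.

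The measure was the difference of log2(RPKM + 1), Gata6-AS LNA minus control, for genes averaging 1 RPKM or more and a span of at least 200 bp, which left out 5 features. The size rule was 2-fold. With 1 library per group no test was made. Some listed genes and a motif are not reported here, and lists are counted without them. Of 235 distinct listed genes, 225 matched by symbol, 6 by RefSeq synonym (GRCm38.p6, names only) and 4 were not matched.

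One read is a fixed step of RPKM times length, found from features spanning under 3000 bp (777 in the control, 824 in the Gata6-AS LNA library gave whole reads within 0.0002 reads plus a relative 3e-07). The least reads behind a gene are those at the smallest length from 100 to 30000 bp that makes both values whole. Ratios carry exact Clopper-Pearson 95% intervals from them; PCR duplicates are not independent molecules. The steps were tested on simulated data. Python 3.11.15, numpy 2.4.6, pandas 2.3.3 and scipy 1.17.1 were used.

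Named were all members, in each list up to 4 measured genes past the size rule and then those of highest mean, the genes nearest to each member and those of the albumin and apolipoprotein clusters. Chosen after their values were seen were Srprb, Mttp, Lipg, Apobec1, A1cf, Lrp8, Lrp1, Lrp2, Cubn, Amn, Stra6, Tfrc, Hnf4a, Foxa1, Foxa2, Cebpa, Ahsg, Igf2, Orm1, the motifs, the cell type markers given by name and the unmeasured genes named in lists. Alternatives were pseudocounts of 0.1 and 0.5 RPKM, the median difference set to 0, scaling to 1000000 summed RPKM, no filter or 5 RPKM, a 1.5-fold rule and summed rows.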

Additional observations from a re-analysis of the deposited data

How the results depend on the processing

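The differences of the 4 measured members stayed below 0 in all 27 alternative values (Rbp4 -0.35 to -0.30, Trf -0.27 to -0.22, Apoe -0.19 to -0.15, Ttr -0.15 to -0.10), and 0 members passed the 2-fold or the 1.5-fold rule in either direction. Some of the 27 values could not differ from the main one. A change of filter leaves a gene's own difference as it is, and each member has only 1 row to sum. Only the pseudocounts, centring and scaling could move it. The median of the 4 members, -0.19, was -0.23 after centring the expressed genes' differences on 0 and -0.022 with no filter on low values, which takes in all 10 members. The 6 members added there lie so far below the pseudocount of 1 RPKM that their differences had to be near 0. Apob, at 50.1% of control, has a difference of -0.02. Taking out the filter could therefore bring none of the 6 past either rule. Without Trf, an alternative chosen after seeing the data, it was -0.15. Over the related lists without cell type markers, the count of genes 2-fold higher was 0 and became 2 with a pseudocount of 0.1 RPKM (Lipg and Lrp8), 1 with each library scaled to 1000000 summed RPKM and 3 with the 1.5-fold rule. The reads of the 6 unmeasured members, at most 42 in a library by their least counts, limit what could be detected for them. For Apom the true counts may be above its least counts. Medians of the related lists were less steady. That of the receptors, 0.04, was -0.012 after centring and -0.06 among genes averaging 5 RPKM or more. That of lipoprotein assembly, 0.02, was -0.026 after centring and -0.0036 after scaling. That of other secreted proteins, 0.05, was -0.24 at 5 RPKM. That of transcription factors, -0.18, was -0.47 at 5 RPKM and -0.003 with no filter, a setting that adds genes whose differences the pseudocount draws towards 0. No paired analysis was possible because each group holds 1 library.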
